A study of Coffea canephora with 12 samples.

Results

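The 6 genes described here are copies of *CcGH3.17* in *Coffea canephora* (robusta coffee): *CcGH3.17a* (Cc00_g04490), *CcGH3.17b* (Cc00_g04500), *CcGH3.17c* (Cc00_g04520), *CcGH3.17d* (Cc00_g04530), *CcGH3.17e* (Cc00_g04540) and *CcGH3.17i* (Cc10_g16320). They were picked by gene ID, with no expression value in the rule but with earlier results of these data known. The count files hold 25574 genes, 18 of them *CcGH3* genes and 9 of those named *CcGH3.17*. The RNA came from leaves during the induction of somatic embryogenesis, in which leaf cells form embryos without fertilisation. At 14 dbi (days before induction) the leaves came from plantlets on MS salts with no growth regulator, and at 9 and 0 dbi from plantlets on MS salts with naphthaleneacetic acid, an auxin, and kinetin, a cytokinin. At 1, 2 and 21 dai (days after induction) the samples were leaf explants on Yasuda salts with benzyladenine, another cytokinin. In the study's protocol, plantlets were on semi-solid medium under a photoperiod, while explants were shaken in liquid medium in the dark. The stage thus differs in tissue wounding, medium and its form, growth regulators, light and time at once, and these cannot be told apart. The submitters describe 1 biological sample at each of the 6 time points, sequenced as 2 technical libraries. P-values over the 12 libraries thus measure the spread between libraries only, and in the comparison of stages the time point was the unit.

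GH3 enzymes belong to the early auxin-response genes of plants. Those of the large auxin-conjugating group join indole-3-acetic acid (IAA), the main natural auxin, to an amino acid and so take free auxin out of action. The amino acid attached bears on whether the hormone is stored or broken down. In *Arabidopsis*, GH3.17 is an IAA-conjugating enzyme that prefers glutamate. The activity of the single coffee copies was not measured in these libraries, which count transcripts.

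In the AUK_PRJEB4211_v1 annotation, 5 of the 6 copies follow one another on 1 unplaced scaffold, within 89487 bp. *CcGH3.17a* lies at 20803 to 27577, *CcGH3.17b* at 42428 to 43943, *CcGH3.17c* at 76786 to 79490, *CcGH3.17d* at 91593 to 95695 and *CcGH3.17e* at 108516 to 110289. The gaps between them are 14850, 32842, 12102 and 12820 bp, and *CcGH3.17f*, a copy outside this set, starts 81 bp after *CcGH3.17e*. The study's protein lengths for *CcGH3.17b*, *CcGH3.17e* and *CcGH3.17f* are well under those of *CcGH3.17a*, *CcGH3.17c*, *CcGH3.17d* and *CcGH3.17i*. Whether the models of *CcGH3.17e* and *CcGH3.17f* are parts of a single gene was not tested. *CcGH3.17i* stands alone on chromosome 10 (27266613 to 27270177).

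How alike the copies are bears on which of them a read is given to. Among the first 399 bases of the 9 *CcGH3.17* gene models in the study's sequence table, 36 pairs were compared without gaps, and 6 pairs shared an identical run of at least 20 bases. *CcGH3.17e* was nearest to *CcGH3.17h* (361 of 372 aligned bases identical, longest identical run 104) and to *CcGH3.17b* (311 of 324, longest run 89). *CcGH3.17a* and *CcGH3.17d* shared 337 of 397 aligned bases, with a longest run of 96. *CcGH3.17d* and *CcGH3.17e* had no identical run over 9 bases in these stretches, and neither *CcGH3.17c* nor *CcGH3.17i* had one over 10 bases with any other copy. The first bases of different models need not come from the same part of the gene, and the rest was not compared. Short runs here therefore do not show that copies differ elsewhere. The window common to *CcGH3.17b*, *CcGH3.17e* and *CcGH3.17h* is shown because their pairs had the highest identity among the stretches compared. How often a read of one passed for another there was not tested. It is 297 bases long, starts at base 103, 28 and 1 of the 3 models, and is given 5′ to 3′ with the 16 positions that vary among them in capitals.
CcGH3.17b: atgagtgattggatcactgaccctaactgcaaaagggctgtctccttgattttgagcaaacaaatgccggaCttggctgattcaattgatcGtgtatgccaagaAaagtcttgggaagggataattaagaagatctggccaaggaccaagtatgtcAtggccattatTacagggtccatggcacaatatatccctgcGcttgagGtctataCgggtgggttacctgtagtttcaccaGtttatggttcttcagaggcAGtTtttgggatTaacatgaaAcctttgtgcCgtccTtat
CcGH3.17e: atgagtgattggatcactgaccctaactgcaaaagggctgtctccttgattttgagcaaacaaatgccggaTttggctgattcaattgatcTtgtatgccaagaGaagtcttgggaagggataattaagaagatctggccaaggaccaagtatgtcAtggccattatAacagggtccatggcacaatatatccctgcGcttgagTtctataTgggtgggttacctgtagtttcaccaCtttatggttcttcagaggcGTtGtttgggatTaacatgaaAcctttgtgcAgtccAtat
CcGH3.17h: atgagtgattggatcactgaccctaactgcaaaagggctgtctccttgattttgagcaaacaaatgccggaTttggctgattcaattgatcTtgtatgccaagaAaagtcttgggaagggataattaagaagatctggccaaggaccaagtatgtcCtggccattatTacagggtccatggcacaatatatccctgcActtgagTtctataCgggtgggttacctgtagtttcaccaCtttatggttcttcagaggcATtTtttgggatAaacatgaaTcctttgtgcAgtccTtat
Of the capitals, 6 are found only in *CcGH3.17b*, 6 only in *CcGH3.17e* and 4 only in *CcGH3.17h*. No stop codon interrupts the window in any of them.

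Reads counted in genes ran from 10091539 to 36525500 per library. Low mapping quality kept 11.2% to 12.7% of reads out of the counts in 8 libraries, and 17.6% to 20.3% in the remaining 4, which are the first replicates of 14 and 0 dbi and of 2 and 21 dai. Reads that fit several copies equally well can fall in that class, and how many of them came from *CcGH3.17* was not tested. The 6 copies together took 31200 reads. *CcGH3.17i* took 10496 of these, *CcGH3.17e* 8409, *CcGH3.17d* 5709, *CcGH3.17c* 4726, *CcGH3.17a* 1688 and *CcGH3.17b* 172. All 6 passed the filter on low counts. In leaf samples, fewer cells that use a gene and less RNA per cell cannot be told apart.

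*CcGH3.17d* was the copy that rose. Its normalized read counts (counts scaled to the mean effective library size) were 72.3 and 137.5 (14 dbi), 19.9 and 90.9 (9 dbi), and 137.2 and 223.8 (0 dbi). The induction libraries had 1034.8 and 878.9 (1 dai), 399.8 and 697.5 (2 dai), and 517.4 and 1025.7 (21 dai). Every induction library lay above every pretreatment library. In the comparison of stages, with counts summed per time point and 3 time points against 3, *CcGH3.17d* was higher after induction by 2.80 on the log2 scale (SE 0.49, 95% interval 1.63 to 3.96, edgeR adjusted p = 0.021). In order of the mean, the levels were 55.4 at 9 dbi, 105 at 14 dbi, 180 at 0 dbi, 549 at 2 dai, 772 at 21 dai and 957 at 1 dai. Libraries of neighbouring time points in this order overlapped within a stage, and the gap between 223.8 and 399.8 separated the stages.

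*CcGH3.17e*, the next copy along the scaffold, moved the other way. It had 758.2 and 1166.3 normalized reads (14 dbi), 720.4 and 1068.9 (9 dbi), and 716.6 and 1983.4 (0 dbi). It then had 496.3 and 142.9 (1 dai), 349.0 and 458.8 (2 dai), and 88.3 and 248.8 (21 dai). All 6 induction libraries were below all 6 pretreatment libraries, although the 2 libraries of 0 dbi and those of 1 dai lay far apart. After induction its level fell by 1.86 on the log2 scale (SE 0.35, 95% interval −2.68 to −1.04, adjusted p = 0.0236). Its highest mean was at 0 dbi (1350 ± 896, SD, n = 2) and its lowest at 21 dai (169 ± 113, n = 2).

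These were the 2 of 6 copies called in the comparison of stages, 1 in each direction, where 11% of the 19990 genes tested were called (5.4% higher and 5.58% lower). DESeq2 called the same 2 copies, against 24.1% of all genes. The median log2 change of the 6 copies was 0.09, and that of all 19990 genes 0.08. Without a given time point the fold changes of *CcGH3.17d* and *CcGH3.17e* kept their direction but not always the call. *CcGH3.17d* had adjusted p = 0.0808 without 14 dbi, 0.0566 without 1 dai and 0.0526 without 2 dai. *CcGH3.17e* had adjusted p = 0.0735 without 14 dbi, 0.0518 without 9 dbi, 0.0759 without 0 dbi, 0.0673 without 1 dai and 0.0519 without 2 dai. With the replicate 1 libraries alone neither was called (0.0964 and 0.275), and with the replicate 2 libraries alone both were (0.0307 and 0.0477).

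*CcGH3.17i*, the copy on chromosome 10, had 990.2 and 1112.2 normalized reads (14 dbi), 1074.9 and 1100.6 (9 dbi), and 1412.7 and 999.6 (0 dbi). Its values were 610.4 and 420.2 (1 dai), 832.5 and 633.7 (2 dai), and 863.1 and 800.5 (21 dai). The stages did not overlap here either, but the difference between them, −0.69 on the log2 scale, did not pass the test (SE 0.24, 95% interval −1.26 to −0.11, adjusted p = 0.116). Along with *CcGH3.17d* and *CcGH3.17e* it made up the 3 copies with no overlap between the 6 libraries of each stage. Of 20745 genes, 6.79% lay higher in this way after induction and 6.41% lower.

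The other copies overlapped between stages. *CcGH3.17c* had 289.2 and 453.2 normalized reads (14 dbi), 155.8 and 53.9 (9 dbi), 426.1 and 294.0 (0 dbi), 489.8 and 653.3 (1 dai), 365.9 and 530.5 (2 dai), and 219.6 and 491.8 (21 dai). Both libraries of 9 dbi were its lowest, and its stage difference was 0.86 on the log2 scale (SE 0.49, 95% interval −0.30 to 2.01, adjusted p = 0.296). *CcGH3.17a* had 11.8 and 41.7 (14 dbi), 121.3 and 181.9 (9 dbi), 5.84 and 93.9 (0 dbi), 193.6 and 360.0 (1 dai), 63.0 and 125.8 (2 dai), and 85.8 and 266.6 (21 dai). Replicate 2 was above replicate 1 at each of its 6 time points, and the stage difference was 1.36 (SE 0.73, 95% interval −0.35 to 3.07, adjusted p = 0.265). *CcGH3.17b* was barely read, with 1 and 25 counts at 14 dbi, 25 and 42 (9 dbi), 0 and 27 (0 dbi), 0 and 37 (1 dai), 1 and 7 (2 dai), and 0 and 7 (21 dai). A count of 0 allows up to 0.164, 0.176 and 0.297 CPM in the 3 libraries without a read (3 counts, counting error only). No difference between stages was detectable for it at this depth (log2 difference −1.23, 95% interval −3.93 to 1.46, adjusted p = 0.524).

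**Figure D1:**
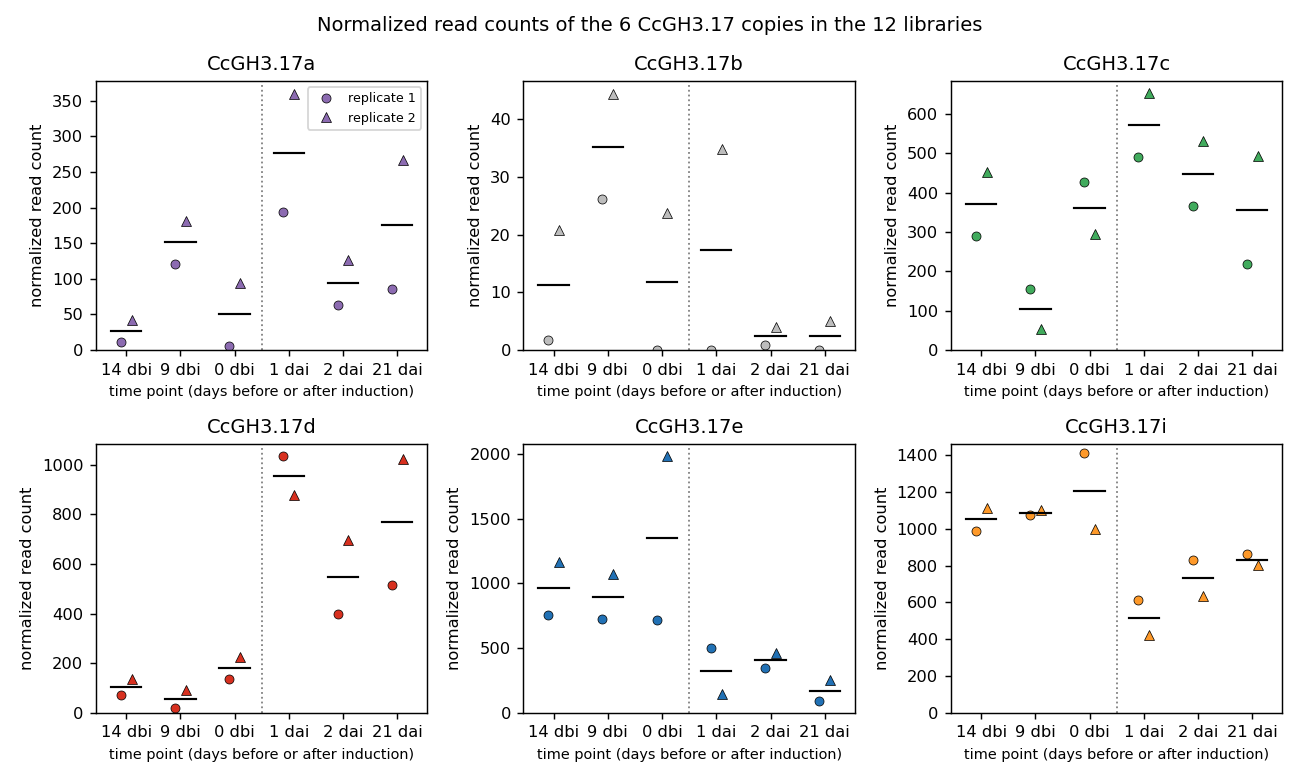
Normalized read counts (y axis, linear, a scale of its own in each panel) of the 6 *CcGH3.17* copies at the 6 time points (x axis). Circles are replicate 1, triangles replicate 2, bars the mean of the 2 libraries, and the dotted line parts pretreatment from induction. *CcGH3.17d* lies between 399.8 and 1034.8 after induction and at or under 223.8 before it, while *CcGH3.17e* and *CcGH3.17i* lie lower after induction than before it.

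While single copies moved, no change in their sum was called. The summed normalized reads of the 6 copies were 2123 and 2932 (14 dbi), 2118 and 2541 (9 dbi), and 2698 and 3618 (0 dbi). They were 2825 and 2490 (1 dai), 2011 and 2450 (2 dai), and 1774 and 2838 (21 dai). The pretreatment and induction libraries overlapped widely, with medians of 2620 and 2470. Tested as 1 row in place of its 6 members, the sum differed between stages by −0.10 on the log2 scale (SE 0.23, 95% interval −0.65 to 0.44, adjusted p = 0.814). A change of the sum as large as those of *CcGH3.17d* or *CcGH3.17e* lies outside this interval, while changes from −0.65 to 0.44 lie within it. The sum over all 9 *CcGH3.17* copies gave −0.19 (adjusted p = 0.649), and that of the 5 neighbours on the scaffold 0.19 (adjusted p = 0.691). A read given to the wrong copy among the 6 leaves their sum as it is.

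**Figure D2:**
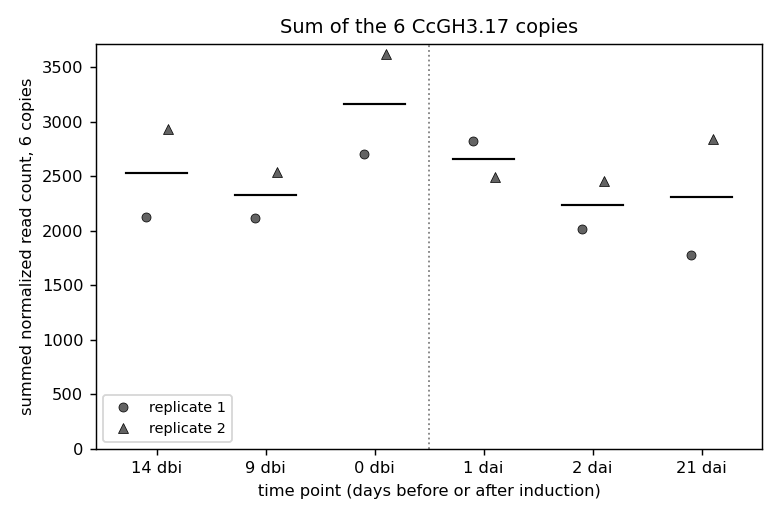
Summed normalized read counts of the 6 copies (y axis, linear from 0) at the 6 time points (x axis), with circles for replicate 1, triangles for replicate 2 and bars for the mean of the 2 libraries. The sums run from 1774 to 3618 and those of pretreatment and induction, left and right of the dotted line, overlap.

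**Figure D3:**
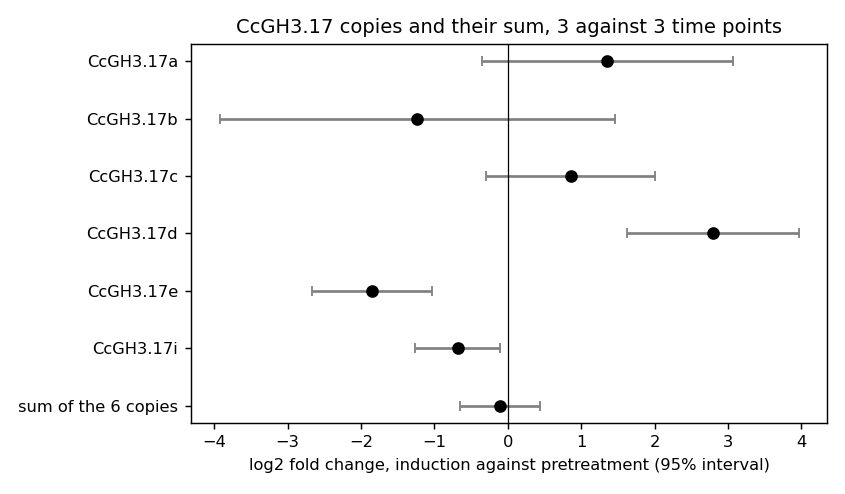
Log2 fold change of each copy and of the sum, induction against pretreatment (x axis), from edgeR on 3 against 3 time points, with 95% intervals as bars. *CcGH3.17d* (2.80) and *CcGH3.17e* (−1.86) passed the threshold after adjustment over all genes. The interval of *CcGH3.17i* (−0.69) also lies clear of 0 but it did not pass, and that of the sum spans −0.65 to 0.44.

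The make-up of the sum differed between the stages. Taken within a library, the share of a copy needs no scaling for depth. *CcGH3.17d* made up 3.40% and 4.69% of the summed reads at 14 dbi, 0.938% and 3.58% (9 dbi), and 5.08% and 6.18% (0 dbi). Its share was 36.6% and 35.3% (1 dai), 19.9% and 28.5% (2 dai), and 29.2% and 36.1% (21 dai). The Wilson 95% interval of its share, which covers counting error only, was at most 6.71 percentage points wide in any library. Over time points, the mean share was 3.98% ± 1.69 (SD, n = 3) before and 30.9% ± 6.08 (n = 3) after induction, a difference of 26.9 percentage points.

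In shares of reads, *CcGH3.17e* was lower by about as much. Its share was 35.7% and 39.8% (14 dbi), 34.0% and 42.1% (9 dbi), and 26.6% and 54.8% (0 dbi). It was 17.6% and 5.74% (1 dai), 17.4% and 18.7% (2 dai), and 4.98% and 8.76% (21 dai). The stage means were 38.8% ± 1.62 and 12.2% ± 5.60, a difference of −26.6 percentage points. When reads were divided by coding length, the differences were 25.6 points for *CcGH3.17d* and −32.1 points for *CcGH3.17e*. For both copies no induction library overlapped a pretreatment library. The exact two-sided permutation test over 3 against 3 time points gave p = 0.1 for each, the smallest p this design allows, so it cannot pass 0.05.

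The shares of the remaining copies overlapped between stages in single libraries. *CcGH3.17i* held 27.6% to 52.4% before and 16.9% to 48.6% after induction, with its lowest mean share at 1 dai (19.2%) and 33.6% and 38.4% at 2 and 21 dai. Its stage difference of −12.7 percentage points (exact permutation p = 0.1) was −6.52 when reads were divided by coding length (exact permutation p = 0.4). *CcGH3.17c* held 2.12% to 15.8% before and 12.4% to 26.2% after induction, a difference of 8.44 points (exact permutation p = 0.1). This was 0.58 points in the libraries over 15% low mapping quality and 10.8 in those under it, and 3.72 with replicate 1 and 13.2 with replicate 2 libraries only. For *CcGH3.17a* the ranges were 0.216% to 7.16% and 3.13% to 14.5%, a difference of 4.36 points (exact permutation p = 0.2). *CcGH3.17b* never exceeded 1.75%. These 6 shares add to 100 in each library, so a rise in one lowers the others, and the 6 p-values and that of the ratio below are not independent.

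**Figure D4:**
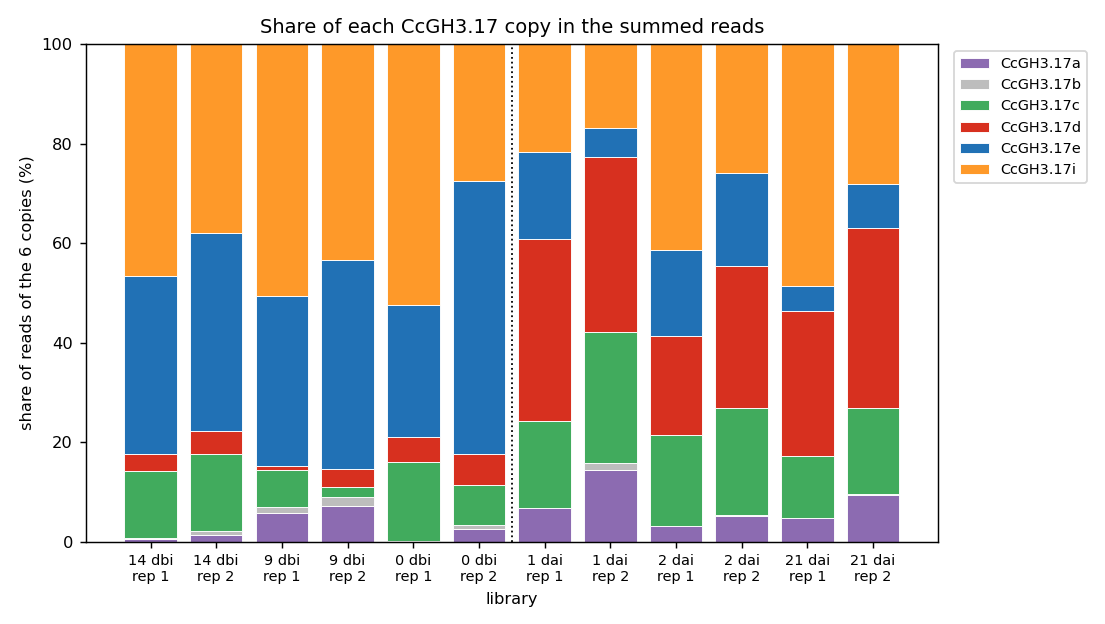
Share of each copy in the summed reads of the 6 copies (y axis, %), 1 stacked bar for each of the 12 libraries (x axis), with the dotted line between pretreatment and induction. The share of *CcGH3.17d* is 0.938% to 6.18% in the 6 bars on the left and 19.9% to 36.6% in the 6 on the right, and that of *CcGH3.17e* 26.6% to 54.8% and 4.98% to 18.7%.

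Levels of different copies can be compared only per length. All values per length take the short model of *CcGH3.17e* as a whole gene. Whether it and *CcGH3.17f* are parts of a single gene was not tested, and the order of the copies could differ if they are. With reads divided by the coding length that follows from the study's protein lengths, *CcGH3.17e* led in 5 of the 6 pretreatment libraries, with *CcGH3.17i* ahead in replicate 1 of 0 dbi. Mean shares on this scale were 49.6%, 49.6% and 51.7% for *CcGH3.17e* at 14, 9 and 0 dbi, followed by *CcGH3.17i* with 34.1%, 37.7% and 32.6%, and at 0 dbi the libraries of these 2 copies overlapped. *CcGH3.17c* came next at 14 and 0 dbi (11.7% and 9.77%), and at 9 dbi *CcGH3.17a* (5.15%) and *CcGH3.17c* (3.84%) lay within the spread of their libraries. After induction no copy led throughout. *CcGH3.17d* led in 3 of the 6 induction libraries, *CcGH3.17i* in 2 and *CcGH3.17e* in 1. At 1 dai *CcGH3.17d* had 33.4% of the reads per length, above *CcGH3.17c* (20.4%), *CcGH3.17i* (17.8%), *CcGH3.17e* (17.4%) and *CcGH3.17a* (10.01%), and those 4 overlapped in their libraries at least with the next in order. At 2 dai *CcGH3.17i* (30.2%) and *CcGH3.17e* (26.4%) did not differ beyond the spread of their libraries, and *CcGH3.17d* (21.7%) just missed those of *CcGH3.17e*, with 25.4% in its higher library against 25.5% in the lower. At 21 dai *CcGH3.17i* (36.9%) and *CcGH3.17d* (31.2%) overlapped, with *CcGH3.17e* at 10.7%.

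Within each library, the reads of the 2 neighbours *CcGH3.17d* and *CcGH3.17e* can be set against each other. The ratio of their reads, not divided by length, was 0.0953 and 0.118 (14 dbi), 0.0276 and 0.0851 (9 dbi), and 0.191 and 0.113 (0 dbi). It was 2.09 and 6.15 (1 dai), 1.15 and 1.52 (2 dai), and 5.86 and 4.12 (21 dai). *CcGH3.17e* had more reads in all 6 pretreatment libraries and *CcGH3.17d* in all 6 induction libraries. Per coding length, *CcGH3.17d* was above *CcGH3.17e* in both libraries of 1 dai and of 21 dai only, and below it in both of 2 dai (17.9% against 25.5%, and 25.4% against 27.3%). A correction for length moves the ratio by the same factor in every library and so leaves its change between stages as it is. The mean log2 ratio was −3.45 ± 0.81 (SD, n = 3 time points) before and 1.51 ± 0.99 after induction, a difference of 4.95 (exact permutation p = 0.1, the smallest this design allows). In the libraries with over 15% of reads at low mapping quality the difference was 4.24, and in those under 15% it was 5.02. The share of *CcGH3.17d* was higher by 20.3 and 29.1 percentage points in these 2 sets of libraries, and that of *CcGH3.17e* differed by −20.0 and −31.2.

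**Figure D5:**
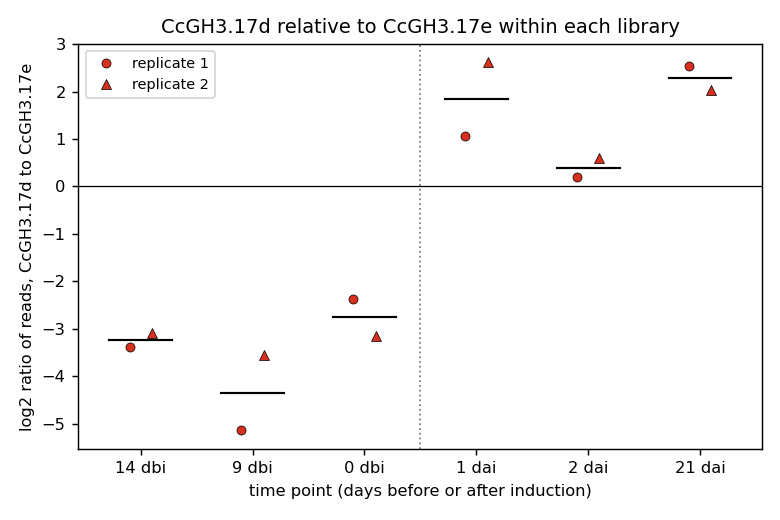
Log2 ratio of the reads of *CcGH3.17d* to those of *CcGH3.17e* within each library (y axis) at the 6 time points (x axis), with circles for replicate 1, triangles for replicate 2 and bars for the mean of the 2 libraries. The ratio runs from −5.14 to −2.38 in the pretreatment libraries and from 0.20 to 2.62 in the induction libraries. The line at 0 marks equal reads, not equal levels, since the reads are not divided by length.

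Of the 5 steps between successive time points, the first of induction had the largest fitted change for both *CcGH3.17d* and *CcGH3.17e*. From 0 dbi to 1 dai the fitted log2 changes were 2.40 for *CcGH3.17d* (SE 0.72, 95% interval 0.81 to 3.99, adjusted p = 0.0679), −2.08 for *CcGH3.17e* (SE 0.71, −3.67 to −0.50, adjusted p = 0.101) and −1.23 for *CcGH3.17i* (SE 0.33, −1.95 to −0.50, adjusted p = 0.0471). *CcGH3.17i* was thus the 1 copy called by edgeR at this step, where 7.82% of genes were called (4.89% lower), and the sum differed by −0.25 (SE 0.33, 95% interval −0.99 to 0.49, adjusted p = 0.702). DESeq2 called all 3 of these copies, against 17.3% of all genes. The call of *CcGH3.17i* was lost when any 1 library was left out, except for either of 9 dbi or replicate 2 of 0 dbi. The adjusted p was then 0.106 without replicate 1 and 0.275 without replicate 2 of 1 dai, 0.218 without replicate 1 of 0 dbi, and 0.0604 to 0.0779 without a library of 14 dbi, 2 dai or 21 dai. Leaving out either library of 9 dbi added *CcGH3.17d* to the calls. With a term for low mapping quality *CcGH3.17i* was not called (adjusted p = 0.0711) and *CcGH3.17e* was.

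No copy was called by edgeR at the other steps. From 14 to 9 dbi, when plantlets were moved to naphthaleneacetic acid and kinetin, 0.535% of all genes were called. Of the copies, *CcGH3.17c* alone had an unadjusted p under the threshold (log2 change −1.82, SE 0.63, adjusted p = 0.2). From 9 to 0 dbi, with 0.13% of genes called, *CcGH3.17c* (1.78, SE 0.63, adjusted p = 0.251) and *CcGH3.17d* (1.70, SE 0.71, adjusted p = 0.322) did so. From 1 to 2 dai and from 2 to 21 dai, with 0% and 1.33% of genes called, none of the 6 copies did. At these later steps *CcGH3.17a* had −1.55 from 1 to 2 dai (SE 1.18, adjusted p = 0.8), and *CcGH3.17e* −1.24 from 2 to 21 dai (SE 0.70, 95% interval −2.79 to 0.31, adjusted p = 0.454). DESeq2 called 0 copies at each of these 4 steps, where it called 7.44%, 5.34%, 1.12% and 8.54% of all genes.

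Between the ends of the series, 21 dai against 14 dbi, *CcGH3.17d* was higher by 2.87 on the log2 scale (SE 0.73, adjusted p = 0.0282) and *CcGH3.17e* fell by 2.49 (SE 0.73, adjusted p = 0.0469), against 13.7% of all genes called (6.32% higher and 7.42% lower). DESeq2 called the same 2 copies, against 23.9% of all genes. *CcGH3.17i* (−0.34, SE 0.32), *CcGH3.17c* (−0.06, SE 0.61) and the sum (−0.13, SE 0.33) were not called. Without any 1 of the 4 libraries compared, neither *CcGH3.17d* (adjusted p = 0.0611 to 0.142) nor *CcGH3.17e* (0.0682 to 0.254) was called. Leaving out replicate 2 of 1 dai ended the call of *CcGH3.17d* (0.0543), and leaving out either library of 2 dai that of *CcGH3.17e* (0.0705 and 0.0706). Over all 6 time points, *CcGH3.17d* was the 1 copy called in the F test (adjusted p = 0.012), where 21.9% of genes were called. The adjusted p was 0.0621 for *CcGH3.17e*, 0.104 for *CcGH3.17i*, 0.156 for *CcGH3.17c* and 0.779 for the sum. *CcGH3.17e* was called as well without replicate 1 of 0 dbi or without replicate 1 of 1 dai. DESeq2 called 4 copies here, all but *CcGH3.17a* and *CcGH3.17b*, against 39.6% of all genes.

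The profiles of the copies over the 6 time points can be described by the correlation of their mean levels, log2(normalized count + 1), over 6 points that share libraries. *CcGH3.17d* ran against *CcGH3.17e* (r = −0.83) and *CcGH3.17i* (r = −0.81), and *CcGH3.17e* and *CcGH3.17i* ran together (r = 0.72) although they lie on different scaffolds. *CcGH3.17c* was nearest to *CcGH3.17d* (r = 0.79). Among all 20745 genes, the profile most like that of *CcGH3.17d* was Cc06_g04410 (r = 0.998), followed by Cc07_g06870 and Cc07_g12810 (both 0.998), and 7.26% of genes reached r over 0.9. For *CcGH3.17e* the nearest were Cc10_g08820 (0.999), Cc08_g03960 (0.998) and Cc11_g12770 (0.997), with 6.59% of genes over 0.9. With 6 points, values this high are common among so many genes.

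The loci next to the copies on the scaffold were almost without reads, while only some of those further along it had many. Cc00_g04480, before *CcGH3.17a*, and Cc00_g04560, after *CcGH3.17f*, had 0 reads in all 12 libraries, and Cc00_g04510, between *CcGH3.17b* and *CcGH3.17c*, had 2 in all. Cc00_g04570 and Cc00_g04600, further on, had 359 to 4205 and 936 to 8402 counts per library. Between them, Cc00_g04580 had 0 to 38 counts per library and Cc00_g04590 had 0 in all 12. Of the 11 loci numbered around the copies that are no *GH3* gene, 8 lie on this scaffold, and 7 of the 11 had enough reads to test. In the comparison of stages 0 of these 7 were called by edgeR, with 2 at an unadjusted p under 0.05, and DESeq2 called 0 of the 6 it tested. Of all genes, edgeR called 11% and DESeq2 24.1% there. From 0 dbi to 1 dai edgeR called 0 of the 7, with 3 at an unadjusted p under 0.05, against 7.82% of all genes. DESeq2 called those 3, against 17.3% of all genes. They were Cc00_g04450 (edgeR log2 change 1.21), Cc00_g04570 (1.44) and Cc00_g04600 (0.88). Over the 6 time points both tools called Cc00_g04450 (edgeR adjusted p = 0.021), which lies on another scaffold. Of all genes, 21.9% were called there by edgeR and 39.6% by DESeq2. *CcGH3.17f*, 81 bp from *CcGH3.17e*, had 67.1 to 428 normalized reads before and 5.05 to 173 after induction, with a stage difference of −1.53 on the log2 scale (SE 0.54, adjusted p = 0.114). DESeq2 called this copy in that comparison.

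Among the other 12 *CcGH3* genes, 11 were tested. In the comparison of stages edgeR called 0 higher and 1 lower after induction, against 11% of all genes (5.4% higher and 5.58% lower). The 1 called was *CcGH3.5* (log2 change −2.91, adjusted p = 0.0498), whose *Arabidopsis* relative GH3.11 conjugates jasmonic acid. DESeq2 called 2 of the 10 it tested, *CcGH3.17f* and *CcGH3.5*, against 24.1% of all genes. The median log2 change of these 11 was −0.17.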

How the data were processed

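The authors deposited 1 file of whole-number read counts per gene for each of 12 libraries. The submitters name FastQC 0.11.5 for read quality, cutadapt 1.14 for adapters and HTSeq 0.10.0 for counting; for the aligner and for strand, nothing is given in the sources used here. The 5 closing lines of unassigned reads stayed out of library sizes and tests. All 25574 IDs matched locus tags of the AUK_PRJEB4211_v1 annotation.

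In R 4.3.3, edgeR 4.0.16 (TMM, filterByExpr, quasi-likelihood test) was fitted to 12 libraries with time point as the only factor (20745 genes). With counts summed per time point, it was fitted to 3 against 3 time points with stage as the only factor (19990 genes). The threshold was an adjusted p (Benjamini-Hochberg, every tested gene) under 0.05. DESeq2 1.42.0 was an alternative. The sum of the copies replaced the 6 rows in a second fit. SE is the log2 change over the root of F, and 95% intervals use the fit's degrees of freedom. Shares were taken within libraries, averaged per time point and compared by exact two-sided permutation (SciPy 1.17.1). The log2 ratio used a pseudocount of 0.5. Shares were planned per coding length from a reference protein table, with shares of counts as the fallback. No such table was at hand, so shares of counts were the main measure. Shares per length from the study's own protein lengths were chosen after seeing the data. So were the comparisons within libraries over and under 15% low mapping quality. The named genes were the 6 copies, the other *CcGH3* genes as a list, the numbered loci around the copies, and for *CcGH3.17d* and *CcGH3.17e* the 3 genes of highest correlation. The members and lists were chosen with earlier results of these data known. The 2 libraries of each time point differed by far more than sampling noise. Chi-square per degree of freedom between them ran from 33.4 (1 dai) to 300 (0 dbi). Their log2 levels correlated at r = 0.822 (9 dbi) to 0.957 (2 dai). The source of this spread was not tested. Leaf markers and promoter motifs were not analysed here, for want of gene names and sequences. The steps were tested on simulated data.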

Additional observations from a re-analysis of the deposited data

How the results depend on the processing

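From 0 dbi to 1 dai, where 1 copy was called, 3 were with DESeq2, 2 with at least 10 counts in every library, 2 with the replicate block (*CcGH3.17d* and *CcGH3.17i*), 0 with no filter, 0 with RLE size factors, 0 with scaling by library size only, 0 with only the 4 libraries compared, and 0 to 2 without 1 library. With a term for low mapping quality the count stayed at 1, but the copy called was *CcGH3.17e* and no longer *CcGH3.17i* (adjusted p = 0.0711). At 21 dai against 14 dbi the 2 calls became 1 with library size only and 0 to 2 without 1 library. Over the 6 time points the 1 call became 4 with DESeq2, and 2 with no filter, with at least 10 counts or with a term for low mapping quality, and was 1 to 2 without 1 library. Between stages the 2 calls became 0 with the replicate 1 libraries only and 0 to 2 without 1 time point.

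The sum was never called. Its direction turned at 9 dbi against 14 dbi (−0.33 to 0.13 without 1 library), at 21 dai against 2 dai (−0.088 with library size only, −0.33 to 0.35 without 1 library), at 21 dai against 14 dbi (−0.51 to 0.17 without 1 library) and between stages for the 5 neighbouring copies (0.19). The replicate block changed no other count of calls. Of the 15 correlations between time points of same-numbered libraries, 5 were over 0.1 (0.25 to 0.38), so the numbers were not taken as pairs over the whole series. Those 5 all join time points whose first replicate had over 15% low mapping quality, so that the number marks a set of libraries there. The pair of 14 and 0 dbi, also of this kind, had r = 0.0596. The stage difference kept its direction under all alternatives for the share of *CcGH3.17d* (20.3 to 30.3 points), of *CcGH3.17e* (−34.5 to −18.8), of *CcGH3.17i* (−16.7 to −4.47) and for the log2 ratio (4.24 to 5.51). The causes of these shifts were not tested. With 1 sample per time point, biological variation was not measured, and intervals of shares cover counting error only.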
